A study of Mus musculus with 30 samples.

Results

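The Tcf/Lef family was followed in 30 RNA-seq libraries of mouse cells on their way from fibroblasts to induced pluripotent stem cells (iPSCs). The family has 4 genes in the mouse, Tcf7, Lef1, Tcf7l1 and Tcf7l2, and all 4 were found by symbol among the 55401 gene identifiers of each of 3 expression tables. Each table held 5 groups of 2 libraries. In the 4-factor arm, mouse embryonic fibroblasts (MEFs) of genotype 129XOG2 were infected with lentiviruses for Oct4, Sox2, Klf4 and c-Myc and kept with doxycycline. Its groups were untreated MEFs (day 0), cells on days 2, 4 and 7, and iPSCs. In the CF1 chemical arm, MEFs of genotype CF1 were moved to a reprogramming medium with no added factors named. Its groups were untreated MEFs (day 0), cells on days 4, 8 and 12, and iPSCs. The iPSCs of both arms were kept on feeder cells with LIF, CHIR99021 and PD0325901. In the removal experiment, MEFs of genotype 129XOG2 went through the chemical medium, and 1 small molecule was taken out from day 8 to day 12. Its groups, all collected on day 12, were CT, -CHIR, -PD, -VC and -WS. No minus sign stands in the title of CT, which was therefore read as the group with nothing removed. The labels do not expand VC or WS. The MEFs were of passages 1 to 3. Whether the 2 libraries of a group go back to different cultures is not in the labels, so the spread behind each p-value may be technical.

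Tcf/Lef proteins are the DNA-binding partners of beta-catenin at the end of the canonical Wnt pathway. Without a Wnt signal, beta-catenin is bound and marked for breakdown by a complex of Apc, Axin and the kinase Gsk3, and Tcf/Lef proteins hold their targets down together with Groucho/Tle corepressors. When Gsk3 is inhibited, by Wnt or by a compound such as CHIR99021, beta-catenin enters the nucleus and binds Tcf/Lef proteins. Tcf7 and Lef1 are mostly activators and are best known from T cells, where they were first described. Tcf7l1, also called Tcf3, is mostly a repressor, and in mouse embryonic stem cells it is known to restrain Nanog, Esrrb and other naive pluripotency genes. Tcf7l2 acts as activator or repressor and is known from the gut epithelium and from fat and liver metabolism.

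In GENCODE M21 (GRCm38) Tcf7 (ENSMUSG00000000782) lies on chromosome 11 from 52252371 to 52283014 on the minus strand. Lef1 (ENSMUSG00000027985) lies on chromosome 3 from 131110471 to 131224356 on the plus strand. Tcf7l1 (ENSMUSG00000055799) lies on chromosome 6 from 72626378 to 72789254 on the minus strand. Tcf7l2 (ENSMUSG00000024985) lies on chromosome 19 from 55741820 to 55933654 on the plus strand. Tcf7, Lef1 and Tcf7l1 each overlap annotated transcripts of the other strand. The sources used here do not say whether counting took account of strand, so reads of such partners cannot be told apart. The highest of the 10 overlapping genes with values was Gm43352, antisense to Lef1, with at most 1.60 FPKM. Lef1 itself went down to 0.341 FPKM in its lowest library, below that value. The part of such reads in the low Lef1 values was not tested.

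Windows at listed gene starts are shown because Tcf7 and Lef1 are themselves known Wnt targets in some tissues. Such windows can be read for the letters that Tcf/Lef proteins bind. RefSeq (GRCm38.p6) gave 9 start sites for the family, 2 for Tcf7, 4 for Lef1, 1 for Tcf7l1 and 2 for Tcf7l2, each as 300 bases with 250 before the start. The core of the Tcf/Lef site was searched as CTTTGA and CTTTGT on both strands, which also reads as TCAAAG and ACAAAG. It was found in 3 of the 9 windows, while 31.2% of all 32851 RefSeq windows of this length hold it, so the share in the family is near that of all genes. The 3 windows with a match and the outermost listed starts of Tcf7 and Lef1 follow, with matches in capitals.
Tcf7 start 1 (chr11:52282965-52283264, minus strand): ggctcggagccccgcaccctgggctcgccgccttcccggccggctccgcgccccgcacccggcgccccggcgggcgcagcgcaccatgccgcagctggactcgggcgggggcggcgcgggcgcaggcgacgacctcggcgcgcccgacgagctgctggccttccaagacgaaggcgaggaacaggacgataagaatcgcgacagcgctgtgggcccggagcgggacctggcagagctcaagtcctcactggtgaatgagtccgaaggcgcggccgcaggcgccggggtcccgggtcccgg
Lef1 start 1 (chr3:131110047-131110346, plus strand): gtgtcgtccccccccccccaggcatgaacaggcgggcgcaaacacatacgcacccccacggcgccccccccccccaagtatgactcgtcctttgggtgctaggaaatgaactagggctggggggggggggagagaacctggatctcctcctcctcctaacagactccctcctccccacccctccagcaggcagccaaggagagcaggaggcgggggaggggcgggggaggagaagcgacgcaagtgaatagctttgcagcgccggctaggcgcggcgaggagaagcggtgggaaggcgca
Lef1 start 4 (chr3:131156044-131156343, plus strand): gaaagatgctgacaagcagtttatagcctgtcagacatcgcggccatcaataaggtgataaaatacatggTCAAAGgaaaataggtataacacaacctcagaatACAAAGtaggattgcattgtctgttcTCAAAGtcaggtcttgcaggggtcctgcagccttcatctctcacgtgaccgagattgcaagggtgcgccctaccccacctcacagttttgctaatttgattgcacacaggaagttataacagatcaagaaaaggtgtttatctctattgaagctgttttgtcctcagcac
Tcf7l1 start 1 (chr6:72788996-72789295, minus strand): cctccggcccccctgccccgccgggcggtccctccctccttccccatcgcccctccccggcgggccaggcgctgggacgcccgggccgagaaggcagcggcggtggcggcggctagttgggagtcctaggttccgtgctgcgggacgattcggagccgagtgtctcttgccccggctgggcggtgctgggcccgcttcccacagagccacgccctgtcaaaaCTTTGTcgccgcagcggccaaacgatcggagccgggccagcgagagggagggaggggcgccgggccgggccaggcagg
Tcf7l2 start 2 (chr19:55895071-55895370, plus strand): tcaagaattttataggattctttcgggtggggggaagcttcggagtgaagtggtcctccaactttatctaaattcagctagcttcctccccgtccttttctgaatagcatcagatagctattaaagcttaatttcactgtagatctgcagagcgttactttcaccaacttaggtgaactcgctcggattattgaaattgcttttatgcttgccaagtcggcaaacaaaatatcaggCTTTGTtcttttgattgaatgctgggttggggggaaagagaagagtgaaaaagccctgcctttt
Lef1 start 4, which lies inside the gene, holds 3 matches, and Tcf7l1 start 1 and Tcf7l2 start 2 hold 1 each. The windows at the outermost listed starts of Tcf7 and Lef1 hold none. The window of Tcf7 start 1 reads atg and then an open reading frame to its end, past the listed start. It may thus be coding sequence and not promoter, so its lack of a match says nothing about the promoter of Tcf7. Any start further out that is not listed was not searched. A match is only a run of letters, and its absence says nothing about binding elsewhere. The expression values are per gene and do not tell which start was used.

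Levels are given as FPKM (sequenced fragments per length of transcript, scaled by library), for replicate 1 and replicate 2 in that order. The smallest steps in which FPKM values rise put the depth of the libraries between 3.45e+07 and 4.01e+07 steps. A single step was worth at most 0.011 FPKM for Tcf7, so the values below rest on many steps. Replicates correlated with r from 0.972 to 0.996 across genes. The least alike replicates were those of 4-factor day 4, where 556 genes were over 2-fold apart. CT replicate 2 had 2.03% of its FPKM in mitochondrial genes against 5.77% to 8.12% in the other removal libraries. Fibroblast markers (8 genes) summed to 2536 FPKM or more in every library outside the iPSC groups and to 133 or less in iPSCs. Naive pluripotency markers (8 genes) summed to 3236 to 4060 FPKM in iPSCs and at most 160.2 elsewhere. In bulk RNA, fewer cells of a type and less RNA per cell cannot be told apart.

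Tcf7l1 was the most abundant member by FPKM, which is a level per transcript length, in 25 of 30 libraries. Tcf7 led in 4 libraries, those of the iPSCs of the 4-factor arm and of CF1 day 4. Lef1 led in 1, replicate 2 of day 4 in the 4-factor arm, and Tcf7l2 led in none. Both libraries of a group had the same leading member in 14 of 15 groups, the exception being day 4 of the 4-factor arm. The order of all 4 members was the same in both libraries in 13 of 15 groups. The sum of the 4 members ranged 3.55-fold over the libraries, from 18.2 to 64.5 FPKM, less than any single member. Lef1 varied 69.9-fold, Tcf7 39.7-fold, Tcf7l1 8.81-fold and Tcf7l2 6.43-fold between their highest and lowest library.

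The make-up of the family shifted most on day 4 of the CF1 chemical arm. On day 0 Tcf7l1 made up 54.97% and 57.2% of the family's FPKM and Tcf7l2 36.9% and 32.4%. By day 4 Tcf7 held 40.5% and 41.3%, Lef1 37.1% and 37.00% and Tcf7l1 only 16.1% and 16.4%. By day 12 Tcf7l1 was back at 68.1% and 65.5%. In the iPSCs of the 4-factor arm Tcf7 and Tcf7l1 shared most of the sum, with 48.8% and 51.1% for Tcf7 and 42.96% and 41.1% for Tcf7l1. The iPSCs of the CF1 arm had less Tcf7, 38.2% and 40.3%, and almost no Lef1, 1.19% and 0.692%. In the removal experiment the share of Tcf7 ran from 2.52% and 2.66% in -CHIR over 13.7% and 11.5% in CT to 35.1% and 34.3% in -WS. The shares are given as a description and were not tested.

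**Figure D1:**
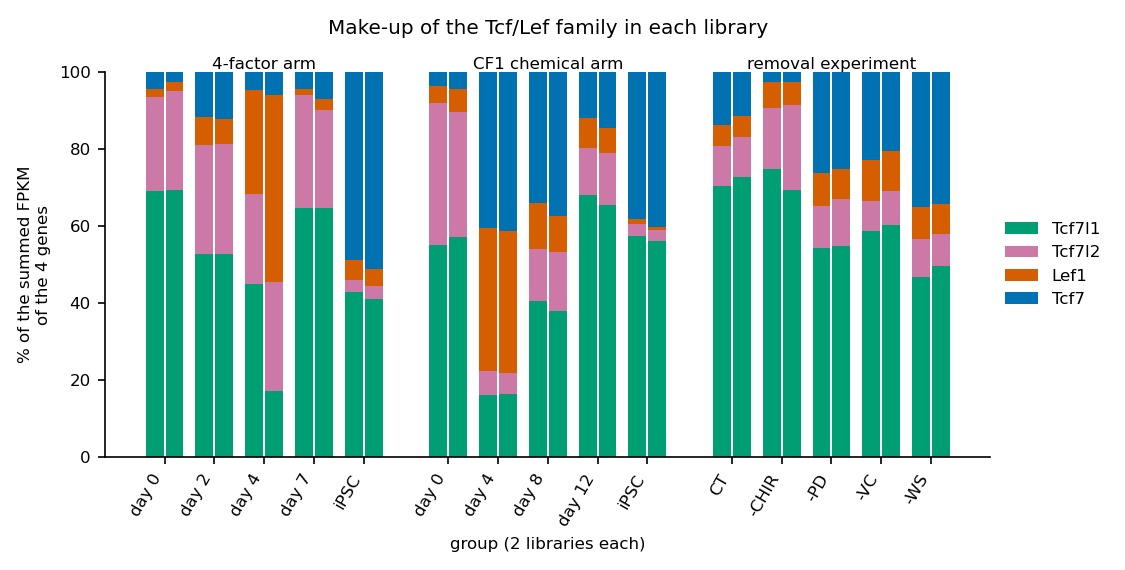
Share of each member in the summed FPKM of the 4 genes (percent, y axis), 1 stacked bar per library, 2 per group (x axis). Tcf7l1 fills most of the bar in most groups. Tcf7 and Lef1 fill most of it on CF1 day 4, and Tcf7 takes 48.8% and 51.1% in the iPSCs of the 4-factor arm.

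Changes were tested with limma on log2(FPKM + 1), 1 fit per table, with p-values adjusted over all genes tested. A member was called, and is said to have risen or fallen, at an adjusted p under 0.05 and a change of at least 2-fold. Differences are on this log2 scale with the standard error after ±, and they understate the change of low genes. Over 17 comparisons 28 of 68 member values were called. In the 4-factor arm against day 0, 1 of 4 members was called on day 2 (all genes 3.68%), 2 on day 4 (16.8%), 0 on day 7 (10.1%) and, for iPSCs, 3 (41.5%). From day 7 to iPSCs 3 were called (45.7%). In the CF1 arm against day 0, 2 were called on day 4 (19.7%), 2 on day 8 (24.3%), 1 on day 12 (25.6%) and, for iPSCs, 3 (40.5%), with 3 from day 12 to iPSCs (49.2%). Against CT, 1 member was called without CHIR (0.971%), 1 without PD (1.27%), 0 without VC (2.33%) and 1 without WS (0.910%). Against the mean of the other 3 removals, 1 was called without CHIR (2.99%). With so few genes called in the removal experiment, Tcf7 stood among a small set there, while in iPSCs a large part of all genes was called. Comparisons against the same day 0, the same iPSCs or the same CT share those libraries and are not independent. The iPSCs were kept with CHIR99021 and PD0325901, while the day 0 MEFs were untreated. Cell state and medium thus differ together between them and cannot be told apart for any member.

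**Figure D2:**
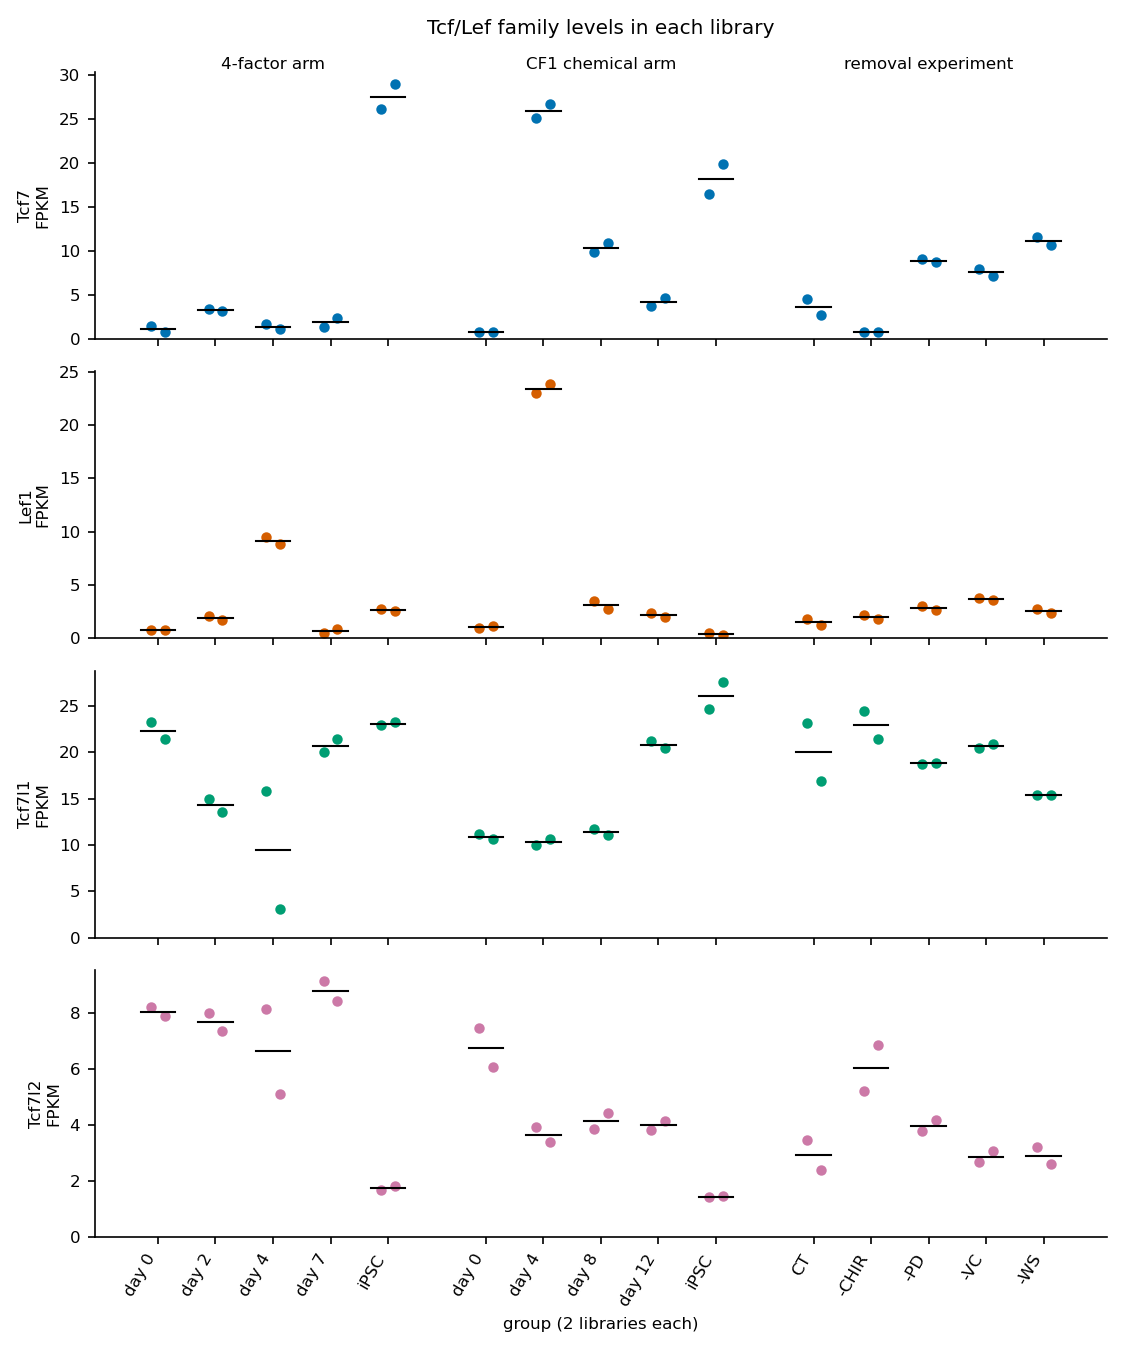
FPKM of each member (y axes start at 0) in every library by group (x axis), with points for libraries and bars for the mean of 2. Tcf7 peaks on CF1 day 4 and in both iPSC groups, Lef1 on day 4 of both arms, and Tcf7l2 is lowest in both iPSC groups.

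Tcf7, an activator, was low in untreated fibroblasts and high in iPSCs. In the 4-factor arm it stood at 1.48 and 0.765 FPKM on day 0, 3.34 and 3.12 on day 2, 1.65 and 1.08 on day 4 and 1.35 and 2.37 on day 7. In iPSCs it reached 26.1 and 28.9 FPKM. Both iPSC libraries lay far above all others of the arm, and the libraries of days 0, 4 and 7 overlapped. It rose by 1.02 ± 0.22 (adjusted p = 0.0193) on day 2, a call that was lost without either day 2 library, without day 0 replicate 2 (0.77, adjusted p = 0.153) or without the filter on low genes. It rose in iPSCs by 3.77 ± 0.22 (adjusted p = 6.61e-07) against day 0 and by 3.34 ± 0.22 (adjusted p = 1.33e-06) against day 7. In the order of its group levels, iPSCs stood above day 2 by 2.75 ± 0.22 (adjusted p = 5.65e-06), with 37.0% of all genes called. Days 2, 7, 4 and 0 followed, and no pair of neighbours among them had an adjusted p under 0.05.

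Tcf7 went up early in the CF1 arm, came down and went up again. It stood at 0.729 and 0.808 FPKM on day 0, 25.1 and 26.6 on day 4, 9.82 and 10.9 on day 8 and 3.72 and 4.58 on day 12. In iPSCs it stood at 16.4 and 19.9 FPKM. No 2 groups of this arm overlapped, though the share of all genes for which this holds is not given here. Against day 0 it rose by 3.92 ± 0.12 (adjusted p = 1.30e-08) on day 4, 2.68 ± 0.12 (adjusted p = 1.20e-07) on day 8, 1.54 ± 0.12 (adjusted p = 3.49e-06) on day 12 and, for iPSCs, 3.43 ± 0.12 (adjusted p = 1.15e-08), and from day 12 to iPSCs by 1.89 ± 0.12 (adjusted p = 3.94e-07). Day 8 stood above day 12 by 1.14 ± 0.12 (adjusted p = 5.42e-05), a called step in a comparison with 11.2% of all genes called. Day 4 stood above iPSCs by 0.49 ± 0.12 (adjusted p = 0.00346) and iPSCs above day 8 by 0.75 ± 0.12 (adjusted p = 0.000245), both under 2-fold.

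In the removal experiment Tcf7 had its lowest level without CHIR. It stood at 4.51 and 2.69 FPKM in CT, 0.827 and 0.823 in -CHIR, 9.03 and 8.70 in -PD, 7.98 and 7.16 in -VC and 11.6 and 10.6 in -WS. The libraries without CHIR lay below all others, CT lay between, and the other 3 removals lay above CT. Against CT it fell without CHIR, with a difference of -1.30 ± 0.16 (adjusted p = 0.00134). It rose by 1.13 ± 0.16 (adjusted p = 0.00238) without PD and by 1.42 ± 0.16 (adjusted p = 0.000876) without WS. Without VC the difference was 0.93 ± 0.16 (adjusted p = 0.00324), under 2-fold, and it passed 2-fold when CT replicate 1 was left out (1.21, adjusted p = 5.81e-05). The call without PD was lost when CT replicate 2, the library low in mitochondrial genes, was left out (0.84, adjusted p = 0.00133). Against the mean of the other 3 removals, which leaves CT out, the difference without CHIR was -2.46 ± 0.13 (adjusted p = 1.89e-06). Among -WS, -PD and -VC no pair of neighbours had an adjusted p under 0.05.

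Lef1, the other activator, peaked on day 4 of both arms. In the 4-factor arm it stood at 0.737 and 0.733 FPKM on day 0, 2.08 and 1.72 on day 2, 9.49 and 8.85 on day 4 and 0.473 and 0.887 on day 7. In iPSCs it stood at 2.72 and 2.56 FPKM. Day 4 lay above every other group of this arm, and day 7 overlapped day 0. It rose by 2.55 ± 0.15 (adjusted p = 5.20e-06) on day 4 and by 1.07 ± 0.15 (adjusted p = 0.000169) in iPSCs, and from day 7 to iPSCs by 1.13 ± 0.15 (adjusted p = 0.000108). The last call fell under 2-fold without day 7 replicate 1 (0.95, adjusted p = 0.00124). On day 2 the difference was 0.74 ± 0.15 (adjusted p = 0.0126), under 2-fold with a pseudocount of 1 and over it with a pseudocount of 0.1 (1.26, adjusted p = 0.0187). Day 4 stood above iPSCs by 1.48 ± 0.15 (adjusted p = 2.30e-05), in a comparison with 37.8% of all genes called.

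Lef1 in the CF1 arm stood at 0.924 and 1.12 FPKM on day 0, 22.98 and 23.9 on day 4, 3.46 and 2.77 on day 8 and 2.41 and 2.03 on day 12. In iPSCs it stood at 0.512 and 0.341 FPKM, the lowest level of the gene in any group. No 2 groups of the arm overlapped, again without the share of all genes for which this holds. It rose by 3.59 ± 0.12 (adjusted p = 2.78e-08) on day 4 and by 1.02 ± 0.12 (adjusted p = 6.86e-05) on day 8. The day 8 call fell under 2-fold without day 8 replicate 1 (0.90, adjusted p = 0.000795) or day 0 replicate 1 (0.95, adjusted p = 0.00102). Day 4 stood above day 8 by 2.57 ± 0.12 (adjusted p = 5.25e-07), with 13.1% of all genes called. From day 12 to iPSCs it fell, with a difference of -1.18 ± 0.12 (adjusted p = 1.46e-05). Against day 0 the differences on day 12, 0.67 ± 0.12 (adjusted p = 0.000967), and in iPSCs, -0.51 ± 0.12 (adjusted p = 0.00393), were under 2-fold, and both passed 2-fold with a pseudocount of 0.1 (1.05 and -1.11).

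Lef1 had a narrower range than Tcf7 in the removal experiment. It stood at 1.84 and 1.28 FPKM in CT, 2.21 and 1.84 in -CHIR, 2.98 and 2.67 in -PD, 3.73 and 3.60 in -VC and 2.71 and 2.37 in -WS. CT had the lowest level, not -CHIR, though CT replicate 1 and -CHIR replicate 2 were nearly equal. None of its differences against CT was called. The highest was without VC, 0.88 ± 0.13 (adjusted p = 0.00140), which passed 2-fold without CT replicate 1 (1.03, adjusted p = 0.000463). Without CHIR the difference against CT was 0.25 ± 0.13 (adjusted p = 0.269), with a 95% interval from -0.04 to 0.54. Against the mean of the other 3 removals it had the other sign, -0.40 ± 0.10 (adjusted p = 0.0169), under 2-fold, and the libraries without CHIR lay below the other 3 groups. No pair of neighbours in its order differed with an adjusted p under 0.05.

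Tcf7l1, the repressor, had its lowest single value on day 4 of the 4-factor arm and rose in the iPSCs of the CF1 arm. In the 4-factor arm it stood at 23.3 and 21.4 FPKM on day 0, 14.99 and 13.6 on day 2, 15.8 and 3.13 on day 4 and 20.01 and 21.5 on day 7. In iPSCs it stood at 22.9 and 23.2 FPKM, overlapping day 0. Replicate 2 of day 4 lay far below every other library, and replicate 1 lay below days 0 and 7 and just above day 2. By the fit it fell on day 4, with a difference of -1.49 ± 0.50 (adjusted p = 0.0360), but without day 4 replicate 2 the difference was -0.47 (adjusted p = 0.0144). The call was also lost without either day 0 library, without the filter on low genes, and with only those 2 groups in the fit. In iPSCs the difference from day 0 was 0.05 ± 0.50 (adjusted p = 0.940), with a 95% interval from -1.08 to 1.17. A change of 2-fold either way lies inside the interval. The fit pools the spread over all groups of the table, so the gap between the day 4 replicates widens this interval. The replicates of day 0 and of iPSCs lay close together, and in the CF1 arm the error for this gene was 0.07. With this pooled error no pair of neighbours in its order had an adjusted p under 0.05, which does not show that their levels were equal.

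Tcf7l1 in the CF1 arm stood at 11.1 and 10.7 FPKM on day 0, 9.96 and 10.6 on day 4 and 11.7 and 11.04 on day 8. It then stood at 21.2 and 20.5 FPKM on day 12 and 24.7 and 27.6 in iPSCs. The last pair of groups lay above the first 3. Against day 0 the difference was -0.08 ± 0.07 (adjusted p = 0.386) on day 4, when Tcf7 and Lef1 peaked, and its 95% interval ran from -0.25 to 0.09. On day 12 it was 0.87 ± 0.07 (adjusted p = 7.43e-06), under 2-fold. It rose in iPSCs by 1.19 ± 0.07 (adjusted p = 5.85e-07), and on the TPM scale by 0.96, just under 2-fold. The step between neighbouring groups with the lowest adjusted p was day 12 over day 8, 0.82 ± 0.07 (adjusted p = 2.59e-05).

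In the removal experiment Tcf7l1 had a narrow range. It stood at 23.2 and 16.97 FPKM in CT, 24.5 and 21.4 in -CHIR, 18.8 and 18.9 in -PD, 20.5 and 20.9 in -VC and 15.4 and 15.4 in -WS. The CT libraries spread over most of this range, and -WS lay below all other libraries. None of its differences against CT had an adjusted p under 0.05. Against the other 3 removals the difference without CHIR was 0.32 ± 0.10 (adjusted p = 0.0392), under 2-fold.

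Tcf7l2 had the opposite course to Tcf7 at the end of both arms. During the 4-factor course it stood at 8.21 and 7.91 FPKM on day 0, 8.02 and 7.35 on day 2, 8.16 and 5.12 on day 4 and 9.15 and 8.46 on day 7. In iPSCs it was down to 1.67 and 1.82 FPKM, below all other libraries of the arm. It fell, with differences of -1.72 ± 0.18 (adjusted p = 3.00e-05) from day 0 and -1.84 ± 0.18 (adjusted p = 1.78e-05) from day 7. Day 4 stood above iPSCs by 1.45 ± 0.18 (adjusted p = 0.000109), while the fibroblasts and days 2, 4 and 7 had no neighbours with an adjusted p under 0.05.

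Tcf7l2 in the CF1 arm stood at 7.47 and 6.06 FPKM on day 0, 3.92 and 3.39 on day 4, 3.85 and 4.45 on day 8 and 3.82 and 4.16 on day 12. In iPSCs it stood at 1.42 and 1.48 FPKM. Day 0 lay above and iPSCs below the 3 intermediate groups, which overlapped. The difference from day 0 was -0.74 ± 0.12 (adjusted p = 0.000576) on day 4, -0.59 ± 0.12 (adjusted p = 0.00182) on day 8 and -0.63 ± 0.12 (adjusted p = 0.00118) on day 12, each under 2-fold. In iPSCs it fell, with differences of -1.66 ± 0.12 (adjusted p = 1.39e-06) from day 0 and -1.03 ± 0.12 (adjusted p = 3.27e-05) from day 12. Without day 12 replicate 2 the last value was -0.98 (adjusted p = 0.000433), just under 2-fold.

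Without CHIR, Tcf7l2 was higher while Tcf7 was lower. Tcf7l2 stood at 3.46 and 2.41 FPKM in CT, 5.23 and 6.85 in -CHIR, 3.79 and 4.17 in -PD, 2.68 and 3.07 in -VC and 3.21 and 2.61 in -WS. The libraries without CHIR lay above all others, and CT, -VC and -WS overlapped. The difference without CHIR was 0.84 ± 0.16 (adjusted p = 0.0115) against CT and 0.73 ± 0.13 (adjusted p = 0.00250) against the other 3 removals, both under 2-fold. The first passed 2-fold without CT replicate 1 (1.04, adjusted p = 0.00310) or -CHIR replicate 1 (1.01, adjusted p = 0.0249). Endothelial markers (4 genes) moved with the removal of CHIR, with sums of 24.3 and 25.8 FPKM in -CHIR (3 of 4 at 1 FPKM or more) against 8.85 and 7.46 in CT (2 of 4). Most of this was Tek, while Pecam1 was at or near 0 in both groups. Neural and neural crest markers (5 genes) moved too, with sums of 20.9 and 21.9 FPKM in -CHIR against 12.6 and 11.4 in CT. At 1 FPKM or more were 3 and 4 of 5 in -CHIR and 3 of 5 in CT. Most of the -CHIR sum was Tubb3. This was not particular to -CHIR, as the sums were 25.4 and 27.3 FPKM in -VC, while -PD and -WS lay below CT. Keratinocyte markers (3 genes) summed to 2.17 and 2.63 FPKM against 1.14 and 0.877, with Trp63 at 0.148 or below in these 4 libraries. Their sums were also above CT in -PD, 1.93 and 1.92 FPKM, and in -WS, 1.70 and 1.74, while -VC overlapped CT. The part of such cells in the Tcf7 and Tcf7l2 values was not tested.

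**Figure D3:**
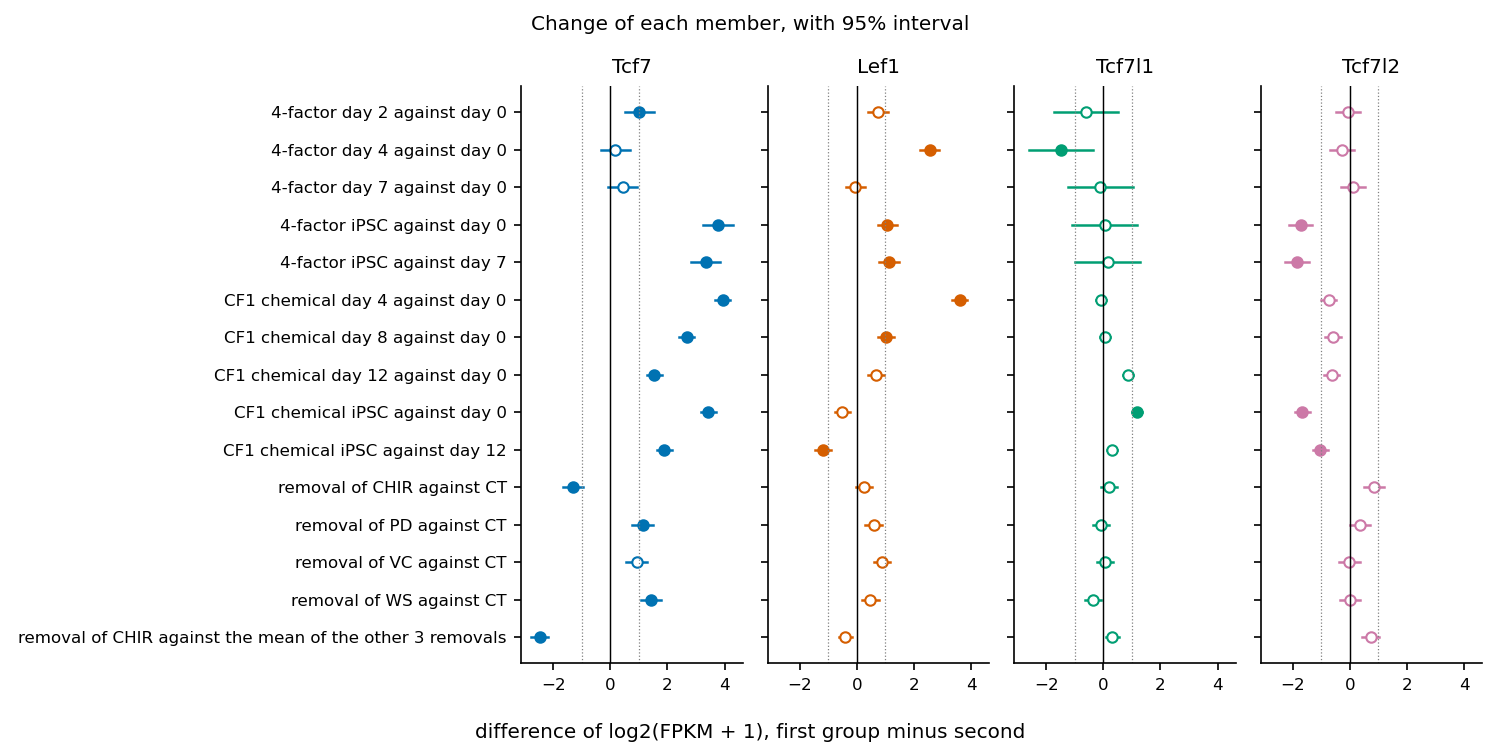
Difference of log2(FPKM + 1) for each member (x axis) in the 15 comparisons within a table (y axis), with 95% intervals; filled points were called, dotted lines mark 2-fold. Tcf7 lies right of 0 in both iPSC groups and left of 0 without CHIR, and Tcf7l2 lies left of -1 in the iPSC comparisons.

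Over all 4 members and 3 tables, 48 pairs of groups were neighbours in the order of levels. Of these, 7 were called, 12 had an adjusted p under 0.05 with less than 2-fold, and 29 had an adjusted p of 0.05 or more. The share of all genes called in these pairs ranged from 0.647% to 49.4%. The orders of Tcf7 and Lef1 in the CF1 arm were thus the best resolved, with an adjusted p under 0.05 at every step.

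The arms differed in how the activators moved. From day 0 to day 4 the change of Tcf7 was larger in the CF1 arm than in the 4-factor arm by 3.76 ± 0.27 (adjusted p = 3.33e-08), and that of Lef1 by 1.04 ± 0.19 (adjusted p = 0.000329). For Tcf7l1 the difference was 1.41 ± 0.56 (adjusted p = 0.0475). These 3 of 4 members were called, where 27.5% of all genes were. Without day 4 replicate 2 of the 4-factor arm, the Tcf7l1 value was 0.39 (adjusted p = 0.0194) and the Lef1 value 0.997 (adjusted p = 0.00138), both under 2-fold. The Lef1 value also fell under 2-fold without CF1 day 0 replicate 1 (0.97) and with a pseudocount of 0.1 (0.92). The Tcf7l1 call was also lost without any other single library of these groups except day 4 replicate 1 of the 4-factor arm, with a pseudocount of 0.1 and without the filter on low genes. From day 0 to iPSCs 1 of 4 members was called, where 10.8% of all genes were. This was Lef1, with a change lower in the CF1 arm, by a difference of -1.57 ± 0.19 (adjusted p = 2.52e-05). The difference in that change was -0.33 ± 0.27 (adjusted p = 0.376) for Tcf7, 1.14 ± 0.56 (adjusted p = 0.141) for Tcf7l1 and 0.06 ± 0.22 (adjusted p = 0.862) for Tcf7l2. Method, mouse stock and table differ together between the arms and cannot be told apart.

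Marker sums of other cell types moved with some of these changes. On day 4 of the 4-factor arm, where Lef1 peaked, epithelial markers (5 genes) summed to 124 and 109.7 FPKM (5 of 5 at 1 FPKM or more) against 2.45 and 2.76 on day 0 (1 of 5). These sums did not follow Lef1 later in the arm. They were 67.5 and 68.0 FPKM on day 7, when Lef1 overlapped its day 0 level, and 143 and 146 in iPSCs. On CF1 day 4 endothelial markers (4 genes) summed to 36.3 and 36.97 FPKM (2 of 4 at 1 FPKM or more) against 6.04 and 5.86 on day 0 (1 of 4), nearly all of it Kdr, with Pecam1 at 0.0713 and 0.129. Macrophage markers (5 genes) summed to 245 and 235 FPKM in CF1 day 0, the reference of that arm, and to 12.5 and 12.7 on day 4, with none of the 5 at 0 on either day. T cell markers (7 genes) summed to 16.9 to 23.2 FPKM in iPSCs, where Tcf7 was high, and to at most 2.02 elsewhere. Of these, Lck stood at 13.2 to 18.2 FPKM and Cd3e at 2.23 to 3.49, while Cd4, Cd8a and the pan-leukocyte gene Ptprc were at 0.159 or below in all 4 iPSC libraries. Neural and neural crest markers (5 genes) summed to 47.4 and 44.2 FPKM on CF1 day 0, mostly Nes, and to 17.3 and 18.9 on day 4. The share of FPKM in mitochondrial genes moved as well, and whether it follows RNA quality here was not tested. It was 4.77% and 5.58% on CF1 day 0 against 13.2% and 12.8% on day 4, and between 10.7% and 13.7% in the later CF1 groups. For the 4-factor arm it was 5.08% and 5.35% on day 0, 11.6% and 7.90% on day 4 and 13.3% and 11.3% on day 7. The part of these markers and of the mitochondrial share in the changes of the members was not tested.

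The rest of the pathway was read through 7 lists that leave the 4 members out, and Axin2 and Lgr5 stand in more than 1. Wnt ligands and receptors are taken first, then the destruction complex, nuclear partners and corepressors, then targets. On CF1 day 4, 6 of 11 Wnt ligands tested rose and 0 fell, with a median difference of 1.14 against 0.04 over all genes. On that day 19.7% of all genes were called. Wnt4 went from 7.42 and 6.35 to 124 and 129 FPKM, by 4.02 ± 0.09 (adjusted p = 2.62e-09), and Wnt2 from 1.35 and 1.14 to 29.6 and 31.8 FPKM, by 3.82 ± 0.09 (adjusted p = 4.05e-09). Both are secreted ligands, and the 2 days did not overlap for either. Of 20 receptors and potentiators, 10 rose and 1 fell (median 0.97). Lgr5, a receptor for R-spondins, rose by 4.03 ± 0.10 (adjusted p = 6.37e-09), and Rspo4, a secreted R-spondin, was listed at 0 on day 0 and at 15.8 and 17.8 FPKM on day 4. In iPSCs the ligands went the other way, with 7 of 9 lower and 0 higher than day 0 in the 4-factor arm (median -1.32, all genes 0.14). In the CF1 arm 7 of 11 were lower and 0 higher (median -1.36, all genes 0.05). The share of all genes called was 41.5% in the 4-factor arm and 40.5% in the CF1 arm. Wnt5a, a ligand known mostly for signalling without beta-catenin, fell in iPSCs, with differences of -4.16 ± 0.11 (adjusted p = 8.31e-09) in the 4-factor arm and -3.48 ± 0.06 (adjusted p = 2.37e-10) in the CF1 arm.

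Beta-catenin itself (Ctnnb1) had a narrow range, lying between 144 and 247 FPKM in all 30 libraries. Of the 13 genes of the destruction complex tested on CF1 day 4, 1 rose and 0 fell, where 19.7% of all genes were called. The riser was Axin2. Its level went from 3.01 and 2.76 FPKM on day 0 to 72.3 and 76.4 on day 4, 14.4 and 14.1 on day 8 and 24.04 and 21.1 on day 12. Axin2 is a scaffold of the complex and a target of the pathway, and all its CF1 intermediate libraries lay above day 0. Among 12 nuclear partners 1 rose, Bcl9, an adaptor between beta-catenin and Pygo proteins, by 1.45 ± 0.09 (adjusted p = 1.20e-06). In iPSCs its relative Bcl9l fell in both arms, with differences of -3.21 ± 0.42 (adjusted p = 0.000110) and -2.24 ± 0.19 (adjusted p = 5.42e-06).

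Among corepressors, Tle4 rose in the iPSCs of both arms, and Tle2 had its lowest level there. Tle genes encode Groucho proteins that bind Tcf/Lef factors. Tle4 stood at 3.82 and 3.61 FPKM on day 0 and 27.5 and 22.8 in iPSCs of the 4-factor arm, a rise of 2.47 ± 0.14 (adjusted p = 5.04e-07). In the CF1 arm it stood at 3.11 and 2.92 FPKM on day 0 and 20.2 and 17.9 in iPSCs, a rise of 2.32 ± 0.09 (adjusted p = 3.09e-08). Both iPSC groups lay above all other groups of their arm. Tle2 stood at 1.41 and 1.47 FPKM on CF1 day 0, 10.1 and 9.21 on day 12 and 0.614 and 0.677 in iPSCs, with a rise on day 12 of 2.12 ± 0.08 (adjusted p = 6.34e-08) and a difference of -2.69 ± 0.08 (adjusted p = 4.84e-09) from there to iPSCs. Of the corepressors and kinases tested in iPSCs against day 0, 5 of 13 rose and 2 fell in the 4-factor arm (median 0.42, all genes 0.14). In the CF1 arm 7 of 14 rose and 2 fell (median 0.93, all genes 0.05). Of all genes, 41.5% were called in either direction in the 4-factor arm and 40.5% in the CF1 arm. Without CHIR the kinase gene Hipk2, whose product can phosphorylate Tcf/Lef factors, was the 1 of 14 list members that rose against CT, and 0 fell. Its level went from 1.87 and 1.79 to 5.61 and 4.97 FPKM, by 1.15 ± 0.11 (adjusted p = 0.000417). In this comparison 0.971% of all genes were called.

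Lef1 rose on day 4 of both arms, but Wnt feedback and target genes did not rise in both. Of all genes, 19.7% were called on CF1 day 4 and 16.8% on day 4 of the 4-factor arm. In the CF1 arm 12 of 18 rose and 1 fell on day 4, with a median of 3.20 against 0.04 over all genes. For the 4-factor arm the count was that 0 of 16 rose and 5 fell on day 4 (median -0.34, all genes 0.04), and 5 became 4 without day 4 replicate 2. Notum, a secreted enzyme that inactivates Wnt, went from 2.00 and 1.45 to 172 and 179 FPKM in the CF1 arm, by 6.03 ± 0.18 (adjusted p = 1.22e-08). Wif1, a secreted Wnt inhibitor, rose there by 6.82 ± 0.10 (adjusted p = 4.51e-10) to 116 and 118 FPKM. Lgr5 fell on day 4 of the 4-factor arm, with a difference of -2.95 ± 0.14 (adjusted p = 2.08e-06), and so did Myc, with -2.55 ± 0.22 (adjusted p = 4.85e-05), Myc being among the delivered factors. Axin2 there stood at 2.40 and 2.37 FPKM on day 0 and 0.579 and 0.313 on day 4. Lgr5 started from unlike means, 16.1 FPKM on day 0 of the 4-factor arm and 0.604 on CF1 day 0, a gap that was not tested. The change from day 0 to day 4 was higher in the CF1 arm for 14 of 19 list members and lower for 0, with a median of 3.51 against 0 over all genes. The share of all genes called in this comparison was 27.5%.

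**Figure D4:**
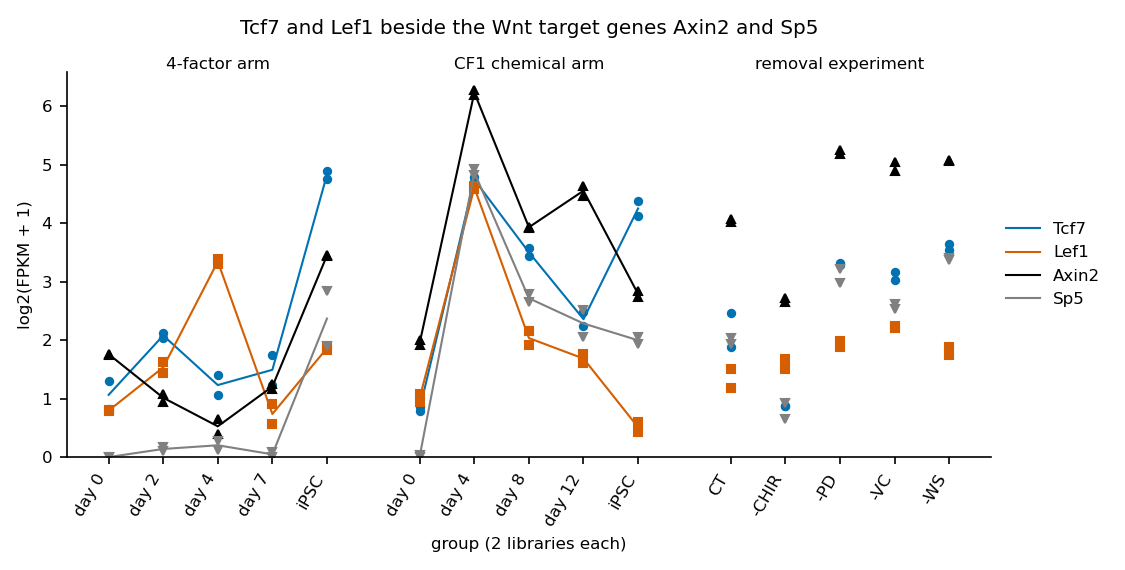
log2(FPKM + 1) (y axis) of Tcf7, Lef1 and the Wnt target genes Axin2 and Sp5 in every library (points) by group (x axis), with lines through the means of each arm. On CF1 day 4 all 4 are high. On day 4 of the 4-factor arm Lef1 is high and Axin2 and Sp5 are low. In the removal experiment Tcf7, Axin2 and Sp5 are lowest without CHIR.

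In iPSCs the feedback and target genes went both ways, as did all genes. Against day 0, 7 of 16 rose and 6 fell in the 4-factor arm (median 0.14, all genes 0.14), where 41.5% of all genes were called, 3270 higher and 2857 lower. In the CF1 arm 4 of 18 rose and 6 fell (median -0.14, all genes 0.05), where 40.5% of all genes were called, 3252 higher and 2996 lower. Cdx1, a homeobox gene known as a Wnt target, was listed at 0 on day 0 of the 4-factor arm and stood at 29.01 and 37.9 FPKM in iPSCs, where Tcf7 was also high. In CF1 iPSCs it stood at 16.6 and 16.2 FPKM. On CF1 day 4, with Tcf7 as high, Cdx1 was at 0.629 and 0.523 FPKM.

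Genes that Tcf7l1 is known to repress were high in iPSCs, where Tcf7l1 itself stood at 22.9 to 27.6 FPKM. Of 13 such naive genes, 13 rose in the 4-factor arm (median 4.34) and 12 in the CF1 arm (median 4.25), and none fell. Over all genes 41.5% and 40.5% were called in these comparisons, with medians of 0.14 and 0.05. The filter on low values lets a gene pass through its iPSC libraries alone, and Pou5f1, Sox2 and Klf4 are also delivered factors in the 4-factor arm, so these counts are a description. On CF1 day 4, with Tcf7l1 near its day 0 level, 1 of 13 rose, Tbx3 by 3.43 ± 0.09 (adjusted p = 6.33e-09), and 2 fell, among them Klf2, with a difference of -3.62 ± 0.10 (adjusted p = 7.64e-09). Over all genes 19.7% were called on that day, a share near that of the list.

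In the removal experiment the feedback and target genes called against CT fell without CHIR and rose without PD, VC or WS. Of all genes, 0.971% were called without CHIR, 1.27% without PD, 2.33% without VC and 0.910% without WS. Without CHIR 0 of 17 rose, 4 fell and 13 were not called (median -0.53, all genes 0.03). Without PD 9 rose and 0 fell (median 1.11, all genes 0.08). Without WS 7 rose and 0 fell (median 0.81, all genes 0.06). Without VC 2 rose, 0 fell and 15 were not called (median 0.59, all genes 0.13), and 1 rose without CT replicate 2. Against the mean of the other 3 removals 9 of 17 fell without CHIR and 0 rose (median -1.35, all genes -0.06). In that comparison 2.99% of all genes were called. The count of falls without CHIR against CT was 5 without CT replicate 2 and 3 without CT replicate 1.

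Single genes show the scale of this. Axin2 stood at 15.9 and 15.3 FPKM in CT, 5.27 and 5.58 in -CHIR, 35.5 and 37.3 in -PD, 31.97 and 28.8 in -VC and 32.4 and 33.04 in -WS. Its libraries fell into the same order as those of Tcf7 at the low end, with -CHIR lowest, then CT, then the other 3. It fell without CHIR, with a difference of -1.37 ± 0.07 (adjusted p = 1.32e-05), and rose by 1.17 ± 0.07 (adjusted p = 2.91e-05) without PD. Notum fell without CHIR too, with a difference of -1.54 ± 0.09 (adjusted p = 1.97e-05). Nkd2, an intracellular inhibitor of the pathway, stood at 1.92 and 1.17 FPKM in CT, 17.1 and 18.5 in -PD and 0.232 and 0.285 in -CHIR. It rose without PD by 2.90 ± 0.14 (adjusted p = 8.89e-06).

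To see which genes shared a member's course, group means of log2(FPKM + 1) were centred within each table and correlated over the 15 groups, for 9212 genes. These points share libraries, so r is only a description. The genes most like Tcf7 were Grik3 (r = 0.92), Nme4 (0.90), Acer2 (0.90), Ldhb (0.89) and Sp5 (0.89), the last being a list member. For Lef1 they were Plcl2 (0.90), Tmem131l (0.89), Zfp53 (0.88), Sgtb (0.88) and Pgm2l1 (0.88). For Tcf7l1 they were Ppp1r16a (0.89), Ubb (0.85), Natd1 (0.83), Atg2a (0.79) and Pccb (0.79). For Tcf7l2 they were Dab2 (0.96), Col4a2 (0.96), Alcam (0.95), Col4a1 (0.95) and Ugdh (0.95). With only the 10 time-course groups, 1 of the 5 was shared for Tcf7, 3 for Lef1, 4 for Tcf7l1 and 0 for Tcf7l2. Between members, r was -0.82 for Tcf7 with Tcf7l2 and -0.66 for Lef1 with Tcf7l1. For Tcf7 with Lef1 it was 0.34.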

How the data were processed

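The 30 mouse RNA-seq libraries form 15 groups of 2 and came in 3 tables of 10 libraries. Groups came from the sample titles. Per the labels' protocols, libraries were made from total RNA and read at 150 bp. The tools named, per the submitters' processing notes, are StringTie 2.0, HISAT2 2.2.1 and fastp 0.20.1, with mm10 as the build. For the annotation, the sources used here name none. The authors deposited FPKM values per gene, 55401 identifiers a table, of which 99.5% matched a GENCODE M21 symbol. FPKM totals ranged from 328158 to 469208 per library, and no read counts were used.

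Each table was fitted on its own with limma 3.58.1 (R 4.3.3, eBayes with a trend) on log2(FPKM + 1), with 1 coefficient per group. A gene was tested where 2 or more libraries reached 1 FPKM, with Benjamini-Hochberg adjustment over all of them. The 2 arms were joined in 1 fit for the differences between their changes. Calls needed an adjusted p under 0.05 and 2-fold. The fit was tested on simulated data. Alternatives were a pseudocount of 0.1, no filter, TPM (FPKM rescaled to 1 sum per library), a replicate block and only the 2 compared groups. Each library of the groups compared was also left out in turn.

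The members, pathway lists and markers were chosen with earlier results of these data known. Named list genes are the 2 called members with the largest change per list and comparison, with a mean of at least 5 FPKM in the higher group. Levels of Axin2, Notum, Nkd2, Tle2, Tle4, Cdx1, Sp5 and Hipk2 in further groups were added after their values were seen, as was Ctnnb1. Genes most like a member are the 5 with the highest r, among genes with a mean of at least 5 FPKM in some group and a log2 range of at least 1. Predicted gene models were left out. Of 24 symbols in the feedback list 23 were found. Sequences are from RefSeq. Figures used matplotlib 3.10.9.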

Additional observations from a re-analysis of the deposited data

Results flagged for a closer look

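Each of the following was flagged because the change from day 0 differed between the CF1 chemical arm and the 4-factor arm in limma's test of the difference itself. The values are differences of log2(FPKM + 1) changes, CF1 minus 4-factor. From day 0 to iPSC the value for Lef1 was -1.57 (adjusted p = 2.52e-05). From day 0 to day 4 the value for Tcf7 was 3.76 (adjusted p = 3.33e-08). Over the same days it was 1.04 for Lef1 (adjusted p = 0.000329). For Tcf7l1 it was 1.41 (adjusted p = 0.0475), and 0.39 without day 4 replicate 2 of the 4-factor arm. Method, mouse stock and table cannot be told apart in any of these.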

How the results depend on the processing

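Counts of members called moved in the following cases. With a pseudocount of 0.1, 2 members in place of 1 were called on 4-factor day 2, CF1 day 12 and without CHIR against CT, 2 in place of 0 without VC, and 1 in place of 3 in the day 4 difference between the arms. The called pairs of neighbouring groups went from 7 to 12, an alternative chosen after seeing the data, like those for the pathway lists and for all genes. Without the filter, 0 in place of 1 was called on 4-factor day 2 and 1 in place of 2 on 4-factor day 4, and with only the 2 compared groups 1 in place of 2 on 4-factor day 4. Leaving out 1 library at a time, where a group left with 1 library is assumed to vary like the others, gave 0 to 1 called on 4-factor day 2, 1 to 2 on 4-factor day 4, 1 to 2 on CF1 day 8, 1 to 2 without CHIR, 0 to 1 without PD, 0 to 2 without VC and 1 to 3 in the day 4 difference. The other count values, 173 in all, stayed within 1.5 times. The libraries that did this are named beside the results.

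Of the values of single members under an alternative, 593 kept direction and call, 27 lost a call, 10 gained one and 18 changed sign. All 18 were uncalled. On the TPM scale they were Tcf7l2 on 4-factor day 7 (-0.059), Tcf7l1 in 4-factor iPSCs (-0.16), on CF1 day 8 (-0.097) and without VC (-0.095), and Tcf7l2 without WS (-0.12). The rest came from leaving out 1 library, with these ranges. On 4-factor day 4 Tcf7 ran from -0.077 (without day 0 replicate 2) to 0.41 and was also below 0 without day 4 replicate 1, and Tcf7l2 ran from -0.57 to 0.017 (without day 4 replicate 2). Lef1 on 4-factor day 7 ran from -0.24 to 0.12 (without day 7 replicate 1), and Tcf7l1 in 4-factor iPSCs from -0.012 (without day 0 replicate 2) to 0.10. Against CT the ends are those without CT replicate 2 and without CT replicate 1. They were -0.017 to 0.41 for Tcf7l1 without CHIR, -0.29 to 0.14 without PD and -0.16 to 0.27 without VC, and for Tcf7l2 -0.20 to 0.18 without VC and -0.19 to 0.20 without WS. The iPSC difference of Tcf7l2 between the arms ran from -0.067 (without CF1 day 0 replicate 2) to 0.19. The cause was not tested.

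Nothing in the labels ties libraries of the same number, and the correlation of their deviations from the group means ran from -0.21 to 0.25, over 0.1 in 4 of 30 pairs. With the replicate number as a block (replicate block) no count of members called and no call changed, for example 2 on CF1 day 4 and 1 without CHIR. Over all genes, a pseudocount of 0.1 moved the count of calls over 1.5 times in 8 comparisons, TPM in 7 and leaving out CT replicate 1 in 4. Against CT the counts without CHIR were 129 (258 with a pseudocount of 0.1, 208 on TPM, 243 without CT replicate 1), without PD 169 (345, 258 and 359), without VC 309 (655, 534 and 504) and without WS 121 (264, 227 and 301). Without CHIR against the other 3 removals 397 became 766 with a pseudocount of 0.1 and 653 on TPM. On 4-factor day 2, 543 became 977 and 848, on day 7 1493 became 2578 and 2291, and in the iPSC difference between the arms 1758 became 2669 with a pseudocount of 0.1. TPM lowered the median of all genes by over 0.1 in several comparisons, on 4-factor day 7 from 0.02 to -0.13. The share of calls that were higher went there from 61.4% to 48.1%, on 4-factor day 2 from 53.0% to 42.0%, on day 4 from 56.0% to 38.9%, in 4-factor iPSCs against day 0 from 53.4% to 44.3%, in CF1 iPSCs against day 0 from 52.0% to 41.6%, without PD from 62.1% to 43.8%, without VC from 39.5% to 20.8% and without WS from 48.8% to 37.0%. Without CT replicate 1 that share went from 68.2% to 83.5% without CHIR, to 81.3% without PD, to 65.1% without VC and to 75.7% without WS. Depth, from 3.45e+07 to 4.01e+07 steps a library, and 2 libraries a group both limit precision, and which limits it more was not tested.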
